A study of Homo sapiens with 3 samples.

Results

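The cells described here were the shallowly sequenced tumor cells of the bottom channel of a stretched organ-on-chip, that is, cells that passed the usual quality limits but carried few RNA molecules. They were every barcode of that library with at least 500 genes, 1000 to 15000 unique molecular identifiers (UMIs, each 1 captured RNA molecule) and at most 20% of UMIs from the mitochondrial genome. The rule found 477 cells of the 1951 that passed those limits in the bottom library (24.4%), and 39278 barcodes passed them in all 3 libraries. The 477 cells held 2.91% of the UMIs of the kept bottom cells. They were compared, as shares of UMIs, with the 1241 bottom cells of over 30000 UMIs, called deep cells below. Because depth, gene number and mitochondrial share chose the cells, those 3 measures are descriptions and support nothing.

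All cells were HCT116 H2B-GFP, an established human colorectal carcinoma line whose nuclei carry a fluorescent histone, grown in a chip with 2 channels. The bottom and the stretched top library came from chips under a peristalsis-like stretch for 6 days, the bottom one holding the cells that had invaded and the top one those that had not. The other library came from the top channel without stretch. Cells were released with trypsin, sorted for GFP and measured with a droplet method that reads the 3′ end of transcripts. Every group is 1 library of 1 line, so no value here has a replicate check. All intervals are 95% and cover counting error only.

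A droplet that captures an intact cell holds mostly cytoplasmic messenger RNA, in which the short, spliced transcripts of ribosomal protein genes are very abundant. Nuclear RNA is richer in unspliced pre-mRNA, and long genes with long introns give much of it. The mitochondrial genome encodes subunits of the respiratory chain and the ATP synthase, and its transcripts stay inside the organelle. Interferon-stimulated genes encode antiviral and antigen-handling proteins whose transcripts are made after interferon signalling through JAK and STAT proteins.

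Several epithelial markers were present. KRT18 was found in 429 of the 477 shallow cells, KRT8 in 411, KRT19 in 402 and EPCAM, a surface adhesion protein of epithelial cells, in 279. Some other members of the epithelial list were absent or scarce. CLDN1, PIGR, CEACAM5 and CEACAM6 were at 0 UMIs, LGALS4 at 1, and KRT20 and CDH17 at 2 each. CDH1 was found in 54 cells, with 100 of its 181 UMIs in 1 cell. Of markers of other cell types, PTPRC of leukocytes, COL1A2, COL3A1 and DCN of fibroblasts and HBB of red cells were at 0 UMIs. Other members of those lists were seen, among them COL1A1 with 21 UMIs in 14 cells, HBA2 with 18 UMIs in 17 cells and CD68 with 10 UMIs in 10 cells. The leukocyte list summed to 5.83 CPM (UMIs of a gene or list per 1000000 UMIs of the group), the fibroblast list to 13.0 CPM and the red cell and platelet list to 12.1 CPM. The 3 libraries held 3513 barcodes (bottom), 25169 (stretched top) and 26106 (top without stretch), of which the limits left out 20.1% to 44.5%. Only 5 shallow cells (1.05%, Clopper-Pearson interval 0.341% to 2.43%) shared their barcode with a cell of another library, against 96 deep bottom cells (7.74%).

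The shallow cells had a median of 2950 UMIs and 1436 genes, against 51289 UMIs and 6837 genes in the deep cells. Their median mitochondrial share was 4.51% (deep cells 3.86%), their share of ribosomal protein UMIs 22.5% (23.2%) and their share from genes spanning over 100 kb 7.08% (8.66%). These medians hid a wide spread. Summed over the shallow cells, genes over 100 kb gave 16.4% of UMIs and ribosomal protein genes 16.4%. The limits did not fall in a gap of the data. The 10 kept cells of 14001 to 15000 UMIs had a median ribosomal share of 11.6% and the 15 cells of 15001 to 16000 UMIs 16.7%. At the lower edge, 37 cells of 1000 to 1100 UMIs had 22.1% and 34 barcodes of 900 UMIs or more just outside it also 22.1%. At the mitochondrial edge, 28 cells of 18% to 20% had a ribosomal share of 6.09% and the 19 barcodes of 20% to 22% just outside had 4.86%.

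The ribosomal protein share divided the shallow cells into 2 ranges. Counted in steps of 3 percentage points from 0, the cells numbered 22, 50, 25, 12, 7, 23, 43, 124, 126, 36 and 9, so the lowest count lay at 12% to 15%. A boundary at 15%, set after the data were seen, gave 116 ribosome-poor and 361 ribosome-rich cells, with 30 cells between 12% and 18%. Each is a range of a score and not a cell type. The ribosome-poor cells made up 24.3% of the shallow cells (20.5% to 28.4%) and 0.725% of the deep cells (0.332% to 1.37%). Among the 233 kept bottom cells of 15001 to 30000 UMIs, 73 were under 15% (31.3%, 25.4% to 37.7%), so this range was not particular to the shallow cells. In the 1000 to 2000 UMI band 17 of 184 cells were ribosome-poor (9.24%), and in the 10001 to 15000 UMI band 51 of 76 were (67.1%). In that deeper band of the stretched top library the share was 3.12%, 164 of 5259 cells. Over all shallow cells it was 4.31% in the stretched top and 8.77% in the top without stretch.

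**Figure D1:**
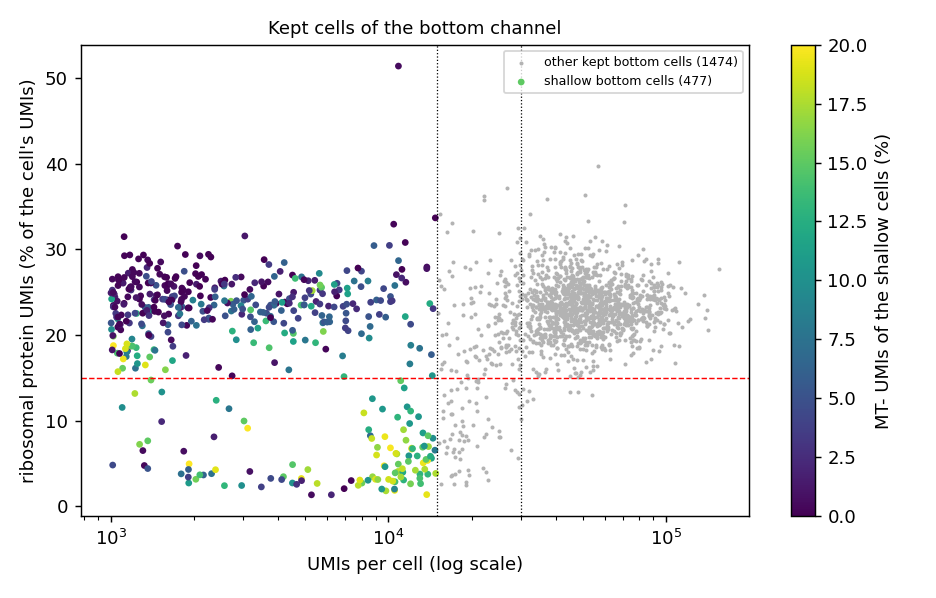
Each point is 1 kept cell of the bottom library, with its UMIs on a log axis and its share of UMIs from ribosomal protein genes in percent. Shallow cells are coloured by their mitochondrial share and other kept cells are grey; the dashed line marks 15% and the dotted lines 15000 and 30000 UMIs. The 477 shallow cells fall into a lower range (116 cells under 15%) and an upper range (361 cells), and the lower range is fullest between 10001 and 15000 UMIs, where it holds 51 of 76 cells.

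The ribosome-poor cells were the deeper and the more mitochondrial of the shallow cells. They had medians of 9147 UMIs, 13.9% mitochondrial UMIs and 32.2% UMIs from genes over 100 kb, and 87 of the 116 had a mitochondrial share of 10% to 20%, with 4 at 0.5% to 1% and 3 below. The ribosome-rich cells had medians of 2227 UMIs, 3.31% mitochondrial UMIs and 6.44% from genes over 100 kb. Their mitochondrial shares were uneven, with 107 cells under 0.5% and 48 cells at 10% to 20%. The difference in composition was also present at equal depth. With each cell thinned to 1000 UMIs, which left out no shallow cell, the median number of UMIs from genes over 100 kb was 322 in ribosome-poor, 65 in ribosome-rich and 86 in deep cells. The same thinning gave medians of 731, 628 and 641 genes detected. The 911 barcodes of the bottom library left out for over 20% mitochondrial UMIs had a median mitochondrial share of 74.7%, which lowers every other share. Their median ribosomal share was 4.40% and that from genes over 100 kb 3.17%, so neither compares directly with the ribosome-poor cells. Summed over these barcodes, genes over 100 kb gave 11.4% of UMIs, against 8.92% in deep cells. Of 710 tested genes over 200 kb, 488 were at least 1.5-fold higher in these barcodes than in deep cells and 31 lower. Their median log2 ratio to deep cells was 0.77, against −0.43 for all 8620 genes tested in these barcodes.

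**Figure D2:**
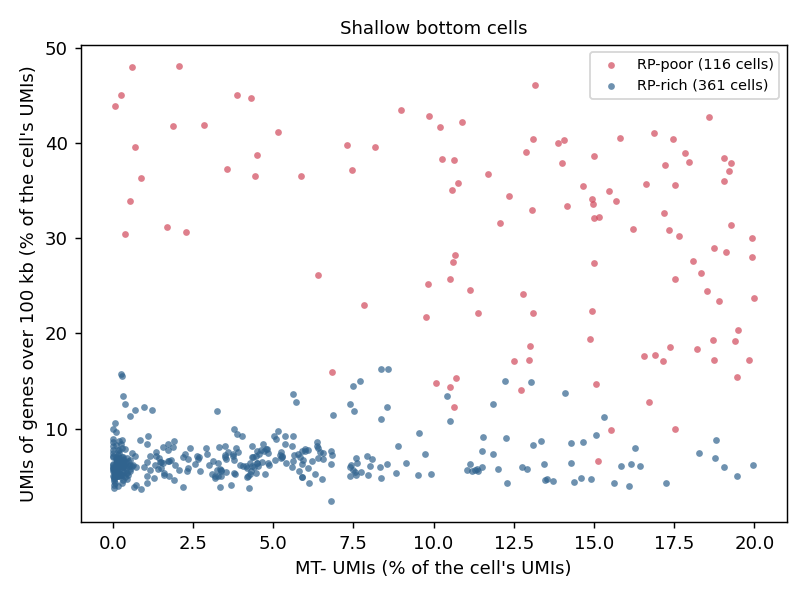
Each point is 1 shallow bottom cell, placed by its percent of mitochondrial UMIs and its percent of UMIs from genes spanning over 100 kb. Most of the 116 ribosome-poor (RP-poor) cells lie at the upper right, with medians of 13.9% and 32.2%, and the 361 ribosome-rich (RP-rich) cells stay low on the vertical axis, with a median of 6.44%.

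Against the deep cells of the same library, the summed shallow cells had 3586 genes at least 1.5-fold higher and 393 at least 1.5-fold lower, among 9185 genes with 10 CPM or more in either group. These are 39.0% and 4.28% of the genes tested. Ratios are of summed CPM, and log2 ratios have 1 CPM added to both sides. The median over all genes of 1 CPM or more was 0.40 log2, and list medians given below as above or below that of all genes have this median of their own comparison subtracted. The split of calls depended on the scaling: 90.1% of the calls were higher with CPM, 37.4% with the trimmed mean of M values and 36.8% with median of ratios. With totals without mitochondrial and ribosomal protein genes 86.9% were higher. The 2 ranges contributed unequally. Of the 3586 higher genes, 3533 (98.5%) were also at least 1.5-fold higher in the ribosome-poor cells taken alone, and 248 (6.92%) in the ribosome-rich cells. Of the 393 lower genes, 380 (96.7%) and 47 (12.0%) were. The ribosome-poor cells had 5657 genes higher than deep cells (57.2% of 9896 tested) and 1842 lower (18.6%), and the ribosome-rich cells 411 higher (4.86% of 8464) and 977 lower (11.5%).

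The genes with the greatest ratios to deep cells came from 5 cells. All 172 CR1 UMIs lay in 1 cell, as did 150 of C14orf39, 79 of TCF4, 69 of SDK1, 52 of FAM155A and 31 of TUBA4B. Of RHOH 128 of 132 UMIs, of RHAG 74 of 81, of CTNNA3 76 of 82 and of AUTS2 32 of 34 also lay in 1 cell each. The cell with the CR1 UMIs also held those of RHAG, SDK1, RHOH and AUTS2. It had 14092 UMIs from 1978 genes, and 185 of its UMIs were from interferon-stimulated genes. No fold is given for these 10 genes, since each describes a single cell. Of the 42 genes at least 4-fold higher, 31 had over 50% of their UMIs in 1 cell. Among the 3586 higher genes this was rarer: 3182 had at most 10% of their UMIs in any 1 cell.

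Gene span ordered the ratios to deep cells. The longest spliced transcript of a gene did so too, and the 2 lengths were not separated. By spliced length, medians in shallow cells went from −0.42 log2 at up to 1000 bases to 0.91 over 8000 bases. In ribosome-poor cells they went from −1.49 to 1.73, and in ribosome-rich cells from −0.003 to −0.31. The values that follow are by span. Among genes spanning over 200 kb, 677 of 757 tested were at least 1.5-fold higher in the shallow cells and 1 was lower, with a median of 1.17 log2. For spans of 100 to 200 kb, 945 of 1239 were higher (0.90), and the medians then went down through 0.58 at 50 to 100 kb, 0.23 at 20 to 50 kb, 0.08 at 10 to 20 kb and −0.06 at 5 to 10 kb to −0.22 at up to 5 kb. Genes over 200 kb took 7.46% of the UMIs of shallow cells and 3.42% of those of deep cells, and genes of up to 5 kb took 18.6% and 25.1%. The 2 ranges had opposite orders. In ribosome-poor cells the median went from −0.77 for the shortest to 2.13 for the longest genes, where 824 of 855 were higher. In ribosome-rich cells it went from 0.08 to −0.52, with 287 of 650 of the longest genes lower. Over all genes tested, 39.0% were higher and 4.28% lower in shallow cells, 57.2% higher in ribosome-poor and 11.5% lower in ribosome-rich cells. In the stretched top library, shallow against deep cells, of which there were 135, gave −0.02 for the shortest and −0.09 for the longest genes.

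**Figure D3:**
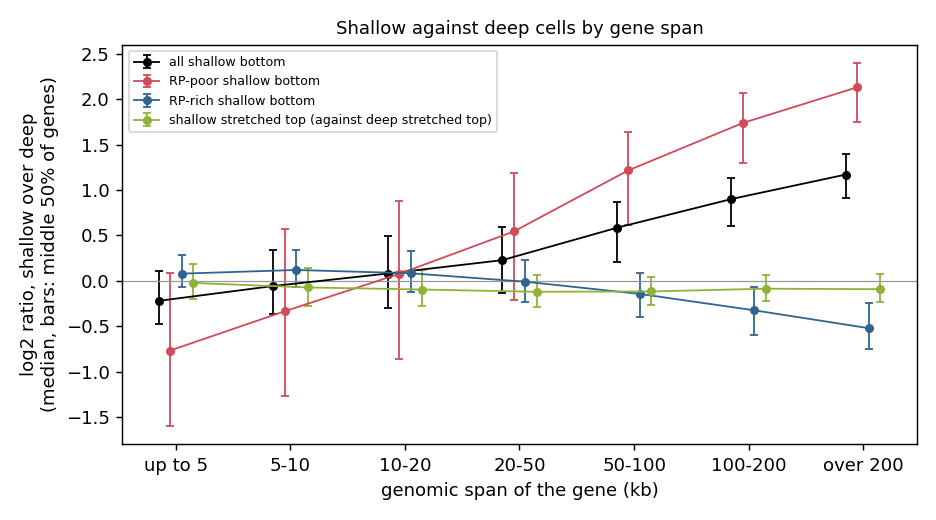
Median log2 ratio of CPM (1 CPM added) to deep cells of the same library for genes grouped by genomic span in kb, with bars for the middle 50% of genes. The line for all shallow bottom cells goes from −0.22 to 1.17, that for ribosome-poor cells from −0.77 to 2.13, and that for ribosome-rich cells goes down from 0.08 to −0.52, while shallow against deep cells of the stretched top end at −0.09.

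KMT2C, a histone H3 lysine 4 methyltransferase that spans 301 kb (hg38 chromosome 7, 152134922 to 152436005), showed this order. It had 175 CPM in shallow and 47.2 CPM in deep cells, with 387 CPM in ribosome-poor and 22.4 CPM in ribosome-rich cells. Its level was 55.2 CPM in the 1000 to 2000 UMI band and 273 CPM in the 10001 to 15000 band. NLK, a kinase of the WNT and Notch pathways (155 kb, chromosome 17, 28041737 to 28196381), had 75.3 CPM in shallow and 19.1 CPM in deep cells, a ratio of 3.95 (3.34 to 4.64). RAPGEF2, an exchange factor for the small GTPase Rap (257 kb, chromosome 4, 159103013 to 159360174), had 97.7 and 25.1 CPM, a ratio of 3.90 (3.37 to 4.49). In ribosome-rich cells NLK had 18.5 CPM (11.9 to 27.6) and RAPGEF2 22.4 CPM (upper bound 32.2), and neither differed from its deep level beyond counting error. CCSER1, which spans 1474 kb, had 265 CPM in ribosome-poor, 23.9 CPM in ribosome-rich and 33.9 CPM in deep cells. ZSWIM6 had 307, 12.4 and 39.2 CPM in the same order, and FRAS1, an extracellular matrix protein, 425, 29.3 and 71.6 CPM. Of the 18 tested members of the list of nuclear-retained and long-gene RNAs, 12 were higher and none lower in shallow cells, 18 were higher in ribosome-poor cells and 11 were lower in ribosome-rich cells. The shares over all genes were 39.0% higher and 4.28% lower in shallow, 57.2% higher in ribosome-poor and 11.5% lower in ribosome-rich cells.

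Some short genes were also high in the ribosome-poor cells. KIFC2, a kinesin motor of 8.16 kb (chromosome 8, 144466043 to 144474202), had 79.3 CPM in shallow and 17.0 CPM in deep cells, a ratio of 4.67 (3.96 to 5.47) that rested on 177 UMIs in 92 cells. Its level was high at both ends of the depth range, with 102 CPM at 1000 to 2000 UMIs and 74.7 CPM at 10001 to 15000, and ribosome-rich cells had 27.8 CPM against 151 CPM in ribosome-poor ones. EME2, a subunit of a DNA structure-specific endonuclease (8.50 kb), had 25.1 and 5.05 CPM, a ratio of 4.97 (3.68 to 6.60), and 3.86 CPM from 5 UMIs in ribosome-rich cells. FOSB, an immediate early transcription factor subunit of 7.18 kb, had 154 CPM in shallow and 56.5 CPM in deep cells, with 309 CPM in ribosome-poor and 41.7 CPM in ribosome-rich cells. TNFRSF25, a death domain receptor, had 43.8 CPM in ribosome-poor, 6.95 CPM in ribosome-rich and 4.52 CPM in deep cells.

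In the ribosome-poor cells, transcripts of the translation and energy machinery made in the nucleus were low while those of the mitochondrial genome were high. Of all genes tested in these cells 57.2% were higher than in deep cells and 18.6% lower. All 31 listed ribosomal protein genes were lower than in deep cells, with a median 2.87 log2 below that of all genes. RPL30 of the large ribosomal subunit had 857 CPM in ribosome-poor, 4587 CPM in ribosome-rich and 5015 CPM in deep cells. RPS12 of the small subunit had 1319, 6981 and 7362 CPM. The ribosomal share defined this range, so these values describe the choice. Of 38 nuclear-encoded genes of oxidative phosphorylation 35 were lower and none higher, and of 28 proteasome genes 25 were lower and 1 higher. MRPS17, a protein of the mitochondrial ribosome, had 10.7 CPM against 78.2 CPM in deep cells, and SLC25A5, the ADP/ATP carrier of the inner mitochondrial membrane, 120 against 784 CPM. The 13 mitochondrially encoded genes were all higher, among them MT-ATP8 (1070 against 171 CPM) and MT-CO2 (35707 against 12092 CPM). Their list median was 1.11 log2 above that of all genes.

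Other lists in the ribosome-poor cells were mixed, read against the same 57.2% of all genes higher and 18.6% lower. Of 15 heat shock genes 12 were lower and none higher, among them HSPE1, the co-chaperonin of mitochondrial HSP60, at 469 CPM against 2604 CPM in deep cells. Of 31 actin and contractility genes 17 were lower and 6 higher, VCL of focal adhesions being among the higher with 455 against 109 CPM. Of 25 tested immediate early genes in the shallow cells, 8 were higher and none lower, below the 39.0% of all genes that were higher. In the ribosome-poor cells 16 of 27 were higher and 1 lower, a median within 0.01 log2 of that of all genes. The unfolded protein response list had 12 of 22 higher and none lower, 0.23 log2 below the median of all genes. CD44, a hyaluronan receptor of invading cells, had 1029 CPM in ribosome-poor, 293 CPM in ribosome-rich and 266 CPM in deep cells. EPCAM had 664, 466 and 488 CPM.

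**Figure D4:**
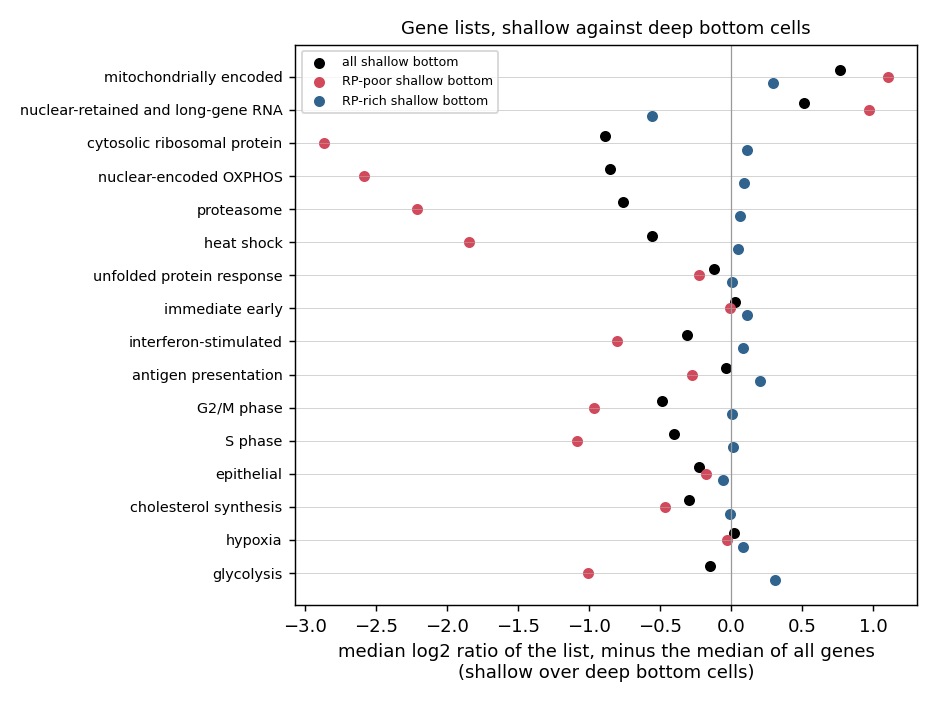
Median log2 ratio to deep bottom cells of the members of the gene lists drawn, minus the median of all genes, for all shallow, ribosome-poor (RP-poor) and ribosome-rich (RP-rich) cells. Ribosome-poor cells spread from −2.87 for ribosomal protein genes to 1.11 for mitochondrially encoded genes, and on the same lists ribosome-rich cells stay between −0.56 and 0.31.

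The ribosome-rich cells were near the deep cells on most lists, as on all genes, of which 4.86% were higher and 11.5% lower. No nuclear-encoded oxidative phosphorylation gene of 38, no proteasome gene of 28, no heat shock gene of 15 and no ribosomal protein gene of 31 passed 1.5-fold. Of 54 G2/M genes 1 was higher and 3 were lower. CD6 stood apart. CD6 encodes a receptor known from T cells and lies on chromosome 11 (60971680 to 61020377). It had 49.4 CPM in ribosome-rich, 21.4 CPM in ribosome-poor and 2.40 CPM in deep cells, and 1.82 CPM in the shallow cells of the stretched top. Over all shallow cells the ratio to deep cells was 15.7 (11.9 to 20.5), from 84 UMIs in 27 cells. By depth, CD6 was highest in the 2001 to 3000 UMI band at 170 CPM and lowest at 5.41 CPM in the 10001 to 15000 band. PTPRC, the pan-leukocyte marker, was at 0 UMIs in all shallow cells. SAT1, which acetylates spermidine and spermine in polyamine breakdown, was also highest in the middle of the depth range, with 821 CPM at 2001 to 3000 UMIs and 824 CPM at 3001 to 5000 UMIs against 154 CPM at 1000 to 2000 and 226 CPM at 10001 to 15000. Deep cells had 188 CPM of SAT1 and shallow cells of the stretched top 1413 CPM.

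A subset of the ribosome-rich cells had almost no mitochondrial RNA. The 125 cells under 1% had a median of 1611 UMIs, a mitochondrial share of 0.196%, a ribosomal share of 25.6% and 6.15% from genes over 100 kb. Against deep cells 1178 genes were higher (13.9% of 8470 tested) and 2247 lower (26.5%). All 13 mitochondrially encoded genes were lower, which the choice of these cells fixes. Of the long-gene list 13 were lower and 1 higher, of cholesterol synthesis genes 13 of 25 were lower and none higher, and of unfolded protein response genes 14 were lower and 2 higher. Genes of secreted and membrane proteins had 11 of 26 lower and 1 higher, and antigen presentation genes 10 of 12 lower and 1 higher. CD6 was at 0 UMIs in these cells. The other 236 ribosome-rich cells had a median mitochondrial share of 5.28%, and 507 genes higher and 967 lower than deep cells among 8507 tested. They held 964666 UMIs, where 3 counts equal 3.11 CPM, so the 2 sets of counts do not compare directly.

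Lower genes were fewer than higher ones with CPM, and also with totals without mitochondrial and ribosomal protein genes (551 lower, 3660 higher). They were more numerous with the trimmed mean of M values and median of ratios (2324 and 2347 lower) and among ribosome-rich cells alone. HIST1H4C, a replication-dependent histone H4 gene on chromosome 6 (26103876 to 26104310), had 151 CPM in shallow and 670 CPM in deep cells, a ratio 4.44-fold lower (3.99 to 4.95). It was low in both ranges, at 65.2 CPM in ribosome-poor and 213 CPM in ribosome-rich cells, and in every depth band, from 116 to 205 CPM. Shallow cells of the stretched top had 204 CPM. The S phase list as a whole had 2 of 41 genes higher and 2 lower, and the G2/M list none of 54 higher and 3 lower, against 39.0% and 4.28% of all genes. RWDD1 had 39.4 against 84.4 CPM, 2.14-fold lower (1.73 to 2.67), and CCDC34 16.6 against 39.3 CPM, 2.37-fold lower.

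Against the shallow cells of the stretched top library, taken at the same depth limits, 3072 genes were higher in the bottom cells (32.6% of 9432 tested) and 564 lower (5.98%). With the trimmed mean of M values 40.5% of the calls were higher, with median of ratios 42.0% and with CPM 84.5%. The top group held 16287 cells with a median of 8211 UMIs, a mitochondrial share of 11.0% and 702 ribosome-poor cells (4.31%), so the 2 groups differed in makeup. Channel, invasion, chip and library cannot be told apart in this comparison.

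Interferon-stimulated genes were low in the shallow bottom cells. Of 29 tested, 27 were lower than in shallow stretched top cells and none higher, with a median of −2.30 log2, 2.61 below that of all genes, and a sum of 1460 against 6499 CPM. ISG15, a ubiquitin-like antiviral protein, had 301 against 2319 CPM, 7.71-fold lower (7.15 to 8.33). IFI6 had 126 against 1155 CPM, 9.14-fold lower (8.14 to 10.3), and IFI27 30.5 against 582 CPM, 19.1-fold lower (15.1 to 24.6). BST2, which tethers budding virus particles, was 17.1-fold lower, and OAS1, a sensor of double-stranded RNA, had 0 UMIs against 18.5 CPM. With 3 counts as the floor, OAS1 was at least 13.8-fold lower. LY6E was level, with 278 and 279 CPM. Against the shallow cells of the top channel without stretch, 30 of 31 tested genes of the list were lower and none higher, with sums of 1460 and 8476 CPM. Of all 9621 genes tested in that comparison, 21.3% were higher and 8.81% lower.

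The low interferon-stimulated level was common to both ranges and close to that of the deep bottom cells. The list summed to 1245 CPM in ribosome-poor, 1615 CPM in ribosome-rich and 1432 CPM in deep cells. Against cells of the same ribosomal range in the stretched top, 29 of 31 genes were lower in ribosome-poor cells (unsubtracted median −2.66 log2, with 20.3% of all genes tested lower) and 28 of 29 in ribosome-rich cells (−2.62 log2, with 24.6% lower). The 2 ribosome-poor groups differed in makeup, with median ribosomal shares of 4.75% (bottom) and 13.0% (top). Their medians from genes over 100 kb were 32.2% and 19.0%. At 1000 UMIs a cell, the median was 1 interferon-stimulated UMI in shallow, ribosome-poor, ribosome-rich and deep bottom cells and 6 in shallow stretched top cells. Against deep bottom cells, 4 of 14 tested genes were higher and 1 lower, where 39.0% of all genes tested were higher and 4.28% lower. IFI6 was among the higher, but 40.4% of its UMIs lay in 1 cell, the one with the CR1 UMIs. Its log2 ratio to deep cells was 1.53 with the 5 leading cells and 0.76 without them, and that of IFI27 was 0.78 and 0.16.

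**Figure D5:**
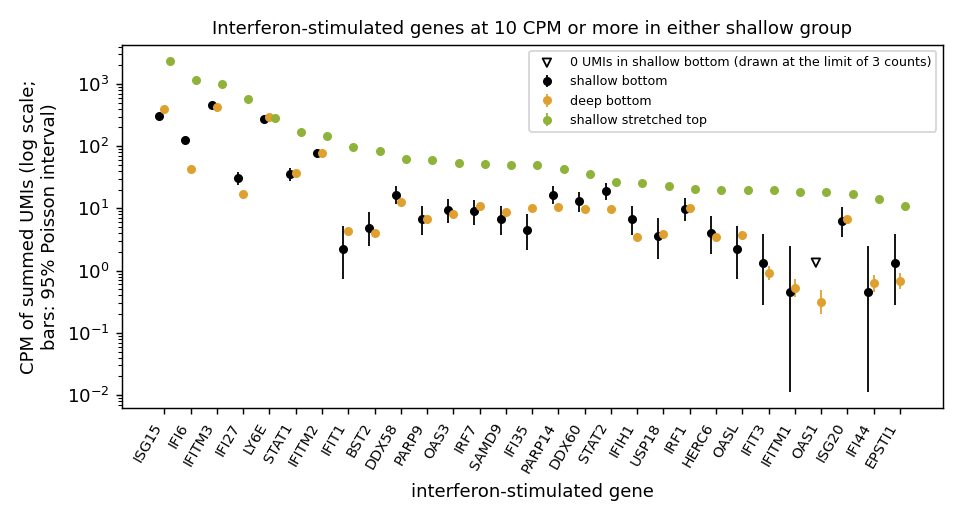
Level of each of 29 interferon-stimulated genes in CPM of summed UMIs on a log axis, in shallow bottom, deep bottom and shallow stretched top cells, with 95% exact Poisson intervals. Most genes are low in both bottom groups and high in the top group, IFI27 for example at 30.5 CPM in shallow bottom and 582 CPM in shallow top cells, and LY6E is level at 278 and 279 CPM.

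Apolipoprotein genes and some hypoxia genes were also lower in the shallow bottom cells than in the shallow stretched top, where 5.98% of all genes were. All 8 tested apolipoprotein and liver secretory genes were lower, with a sum of 4.48 against 302 CPM. APOA1, the main protein of high-density lipoprotein, had 0 UMIs against 90.4 CPM (at least 67.2-fold lower), and APOA2 and FABP1 were also at 0. Of 19 hypoxia genes 8 were lower and none higher, with a median 0.77 log2 below that of all genes. In ribosome-rich cells against ribosome-rich top cells 13 of 18 were lower, against 24.6% of all genes.

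Many G2/M genes were higher than in the shallow stretched top cells. With cells thinned to equal UMIs, median G2/M UMIs were 6 in shallow bottom, deep bottom and deep stretched top cells. The shallow stretched top cells had 2. Median S phase UMIs were 3, 3, 3 and 1 in the same groups. The counts below are therefore against a top group low in both lists. Of 54 G2/M genes 32 were higher and none lower, 0.37 log2 above the median of all genes. The S phase list had 18 of 41 above and 1 below the 1.5-fold limits. Of all genes in this comparison 32.6% were higher and 5.98% lower, so the S phase share was nearer that of all genes than the G2/M share. KIF23, a kinesin of the dividing cell's midbody, had 95.9 against 33.6 CPM, and UHRF1, which carries DNA methylation through replication, 71.3 against 31.1 CPM. The 2 ranges differed here. In ribosome-rich cells 32 of 54 G2/M genes were higher and none lower than in ribosome-rich top cells, while ribosome-poor against ribosome-poor top cells had 3 higher and 16 lower (all genes, 26.3% and 20.3%). For ribosome-rich cells the shares over all genes were 15.8% and 24.6%. The 2 ribosome-poor groups were not matched in makeup, with median ribosomal shares of 4.75% (bottom) and 13.0% (top). Of 15 heat shock genes 7 were higher and 1 lower, a count also not far from the share of all genes, HSPA1B among them with 188 against 31.0 CPM (6.06-fold, 5.47 to 6.70). DKK1, a secreted WNT inhibitor, had 394 CPM in shallow bottom, 549 CPM in deep bottom and 138 CPM in shallow top cells. VIM, the mesenchymal intermediate filament, had 15.2 against 7.46 CPM, but 52.9% of its UMIs in the shallow bottom cells lay in 1 cell.

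Summed profiles were taken of the 135 deep stretched top and the 1241 deep bottom cells. A score per cell compared 1000 thinned UMIs with both, without mitochondrial and ribosomal protein genes. By it 127 of 477 shallow bottom cells (26.6%, 22.7% to 30.8%) were more like the top profile, 23 of the 477 lying within 10 bits of 0. The ribosome-poor cells made up most of these, with 109 of 116 (94.0%), against 18 of 361 ribosome-rich cells (4.99%) and 70 of 1241 deep bottom cells (5.64%). The deep bottom cells were scored against a profile that holds them, which favours a low share. Their share is therefore no independent reference here or in the scores below. Each score added 1 UMI per gene to both profiles, and the deep cells held 4625426 UMIs (top) and 69103828 UMIs (bottom). Genes rare in both profiles therefore weigh toward the top. Ribosome-poor cells had more genes detected at 1000 UMIs, and how far this raised their share was not tested. Leaving out genes that span over 20 kb lowered the share in ribosome-poor cells to 57.8% (48.2% to 66.9%), with 55 of the 116 within 10 bits of 0. With the interferon-stimulated genes alone, 20.7% of ribosome-poor, 22.2% of ribosome-rich and 21.1% of deep bottom cells were on the side of the top, against 76.6% of shallow stretched top cells. That score separates single cells poorly, since 474 of the 477 shallow and all 1241 deep bottom cells lay within 10 bits of 0.

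One shallow cell carried many endothelial transcripts. The cells had been sorted for the GFP of the tumor line, a gate meant to leave other cells out, and the labels used here name no endothelial cells. The cell held 14707 UMIs from 4447 genes, with 39.5% from genes over 100 kb, and 80 UMIs of the endothelial list from 17 of its 21 genes. All 5 PECAM1, 19 VWF and 3 CDH5 UMIs of the 477 cells were in it, while CLDN5 and KDR were at 0. It had 6 epithelial UMIs, none of them EPCAM, and the TCF4 and FAM155A UMIs named above. Leaving out EGFL7, which was found in 149 shallow cells at 121 CPM against 116 CPM in deep cells, the endothelial list had 155 UMIs in the shallow cells. Of these 70 lay in that cell, the next cell held 6, and 424 cells had none. Without the 5 leading cells, of which this was 1, the shallow cells had 3458 genes higher and 362 lower than deep cells.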

How the data were processed

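The submitters deposited for each library 1 filtered matrix of UMI counts (whole numbers), the output of Cell Ranger 7.0.0 per the file headers, on hg38 per the submitters' processing notes. The annotation version is not given in the sources used here. The matrices list 19912 genes and barcodes from 500 UMIs. Gene spans came from GENCODE release 29 on hg38 (19902 genes matched). Barcodes were kept at 500 genes, 1000 UMIs and up to 20% mitochondrial UMIs. No doublet caller was run and no doublets were removed. UMIs were summed per group and scaled to CPM, with 2231483 UMIs in the shallow and 69103828 in the deep bottom cells (3 counts equal 1.34 and 0.0434 CPM). A gene with 10 CPM in either group was called at 1.5-fold, and list medians used members with 1 CPM. CPM have exact Poisson intervals, ratios exact conditional binomial and shares Clopper-Pearson ones. No test was run, because each group is 1 library. Genes were named as the 10 greatest and 10 smallest ratios of each comparison, 2 to 4 members per list and 6 set genes, and further ones of the ribosome-poor and ribosome-rich cells by their ratio after the data were seen. The cells and the 34 gene lists were chosen with earlier results of these data known. On simulated counts (8917 genes), 70 of 70 2-fold changes and 1 of 60 1.25-fold changes against deep cells were called, and 81 of 8717 unchanged genes. The simulated group sums had counting error only, and changes went up or down at random. These rates therefore leave out genes concentrated in single cells and the shift of the median gene seen in the data. Other scalings, cell limits, minimums and added CPM were tried, and leaving out either ribosomal range, the 5 leading cells and genes resting on 1 cell was added after the data were seen. Tools were Python 3.11.15, numpy 2.4.6, scipy 1.17.1, pandas 2.3.3, and edgeR 4.0.16 in R 4.3.3 for scaling factors only.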

Additional observations from a re-analysis of the deposited data

Results flagged for a closer look

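In 3 results on gene span, the medians of the 2 stretched libraries had opposite signs when shallow cells were set against deep cells of the same library. The list of nuclear-retained and long-gene RNAs had a median log2 ratio of 0.91 in the bottom library and −0.06 in the stretched top. Genes spanning 100 to 200 kb had 0.90 in the bottom and −0.09 in the top library, and genes over 200 kb 1.17 and −0.09. The median of all genes was 0.40 in the bottom and −0.07 in the top comparison, so the top values lay at that of all genes and show no order by span. The difference between the libraries was not tested, since each is 1 library. Ribosome-poor cells made up 24.3% of the shallow cells of the bottom library and 4.31% of those of the stretched top, and the bottom medians for ribosome-rich cells alone were −0.32 at 100 to 200 kb and −0.52 over 200 kb.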

How the results depend on the processing

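The interferon-stimulated median stayed between −2.66 and −1.69 log2 against shallow stretched top cells under every setting run. Against deep cells it had no stable sign (0.086, with a range from −0.43 with median of ratios to 0.26 thinned). The counts of calls moved more. Genes higher than in deep cells (3586) numbered 1388 with the trimmed mean of M values, 1369 with median of ratios, 2371 up to 10000 UMIs, 927 up to 10% mitochondrial UMIs, 1330 at a 50 CPM minimum, 1645 at 2-fold, 411 without ribosome-poor and 5657 without ribosome-rich cells. Genes lower (393) numbered 2324 and 2347 with those scalings, 205 with equal cell weights, 613 thinned, 182 up to 10000 and 859 from 5000 UMIs, 223 up to 10% and 1557 with no mitochondrial maximum, 606 at 1 CPM, 18 at 2-fold, 977 without ribosome-poor and 1842 without ribosome-rich cells. Against shallow stretched top cells, genes higher (3072) numbered 1037 and 1079 with those scalings, 1203 up to 10% mitochondrial UMIs, 1388 at 50 CPM, 930 at 2-fold and 1411 without ribosome-poor cells. Genes lower (564) numbered 1526 and 1488 with those scalings, 1075 with totals without mitochondrial and ribosomal protein genes, 975 thinned, 999 up to 10% and 1059 with no mitochondrial maximum, 1197 at 1 CPM, 202 at 50 CPM, 216 at 2-fold, 2203 without ribosome-poor and 2120 without ribosome-rich cells. The share of cells more like the top (26.6%) was 34.6% with mitochondrial and ribosomal protein genes in the score, 18.7% up to 10000 UMIs, 12.6% up to 10% mitochondrial UMIs, 18.5% without genes over 20 kb, 21.8% on interferon-stimulated genes and 4.99% without ribosome-poor cells. The trimmed mean moved log2 ratios by −0.49 against deep and −0.39 against top cells. Among genes named, without ribosome-poor cells the log2 ratio to deep cells was −0.32 for EME2, −0.039 for NLK and −0.16 for RAPGEF2, without ribosome-rich cells −0.20 for IFI27, and −0.10 for CR1 without the 5 leading cells, up to 10000 UMIs or up to 10% mitochondrial UMIs, where it had 0 UMIs and the value reflects only the added 1 CPM. VIM against top cells was −0.24 without ribosome-poor cells and −0.012 without the 5 leading cells. Of 270 named genes 160 differed at least 1.5-fold from deep cells, and 60 of these 160 changed sign somewhere. Of 272 against top cells 173 differed so, and 58 of these 173 changed sign. Sign changes of smaller ratios were not counted. Under all 18 other settings applied to single genes against deep cells, 16 of the 160 stayed at least 1.5-fold in the same direction. Under the 16 against top cells, 61 of the 173 did. The cause of these moves, beyond fewer cells or genes, was not tested. No paired analysis was possible because each group is 1 library, and for the same reason no library could be left out. Depth limits single genes: 3 UMIs in the shallow cells are 1.34 CPM.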

Other observations

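Some further gene groups had no place in the comparisons above, and they are set here against deep bottom cells. Of all genes tested, 39.0% were higher and 4.28% lower in shallow cells, 57.2% and 18.6% in ribosome-poor cells, and 4.86% and 11.5% in ribosome-rich cells. Of 21 tested p53 target genes, 6 were higher and none lower in shallow cells, 9 higher and 4 lower in ribosome-poor cells, and 4 higher and 1 lower in ribosome-rich cells. The first 2 of these counts lie near or below the shares of all genes. MDM2, the ubiquitin ligase of p53, had 162 CPM in ribosome-poor, 54.0 CPM in ribosome-rich and 49.6 CPM in deep cells, and TRIAP1, a small inhibitor of apoptosis, had 25.6, 134 and 122 CPM. Glycolysis genes had 6 higher and 10 lower of 21 in ribosome-poor cells, and 2 higher and 1 lower of 20 in ribosome-rich cells, the latter near the shares of all genes. LDHA, which makes lactate, had 317 CPM in ribosome-poor and 974 CPM in ribosome-rich cells against 950 CPM in deep cells, while SLC16A3, which exports lactate, had 314, 161 and 136 CPM.

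Genes of partial epithelial-mesenchymal transition and invasion had 9 of 17 higher and 1 lower in ribosome-poor cells, 0.25 log2 below the median of all genes, and none of 16 higher and 2 lower in ribosome-rich cells. These counts are near the 57.2% of all genes higher in ribosome-poor cells and the 11.5% lower in ribosome-rich cells. LAMB3, a chain of laminin 332, had 97.2 CPM in ribosome-poor, 13.9 CPM in ribosome-rich and 21.1 CPM in deep cells. PLAU, the urokinase protease, had 113, 25.5 and 32.3 CPM. S100A2 went the other way, with 27.8, 64.8 and 95.4 CPM. Of 18 hypoxia genes 13 were higher and 1 lower in ribosome-poor cells, against 57.2% and 18.6% of all genes, with a median within 0.03 log2 of that of all genes.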
